A study of Mus musculus with 4 samples.

Results

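The troponins and tropomyosins of the thin filament were followed in mouse heart at postnatal day 14 as 9 genes: Tnnt2 and Tnnt1 (troponin T), Tnni3 and Tnni1 (troponin I), Tnnc1 (troponin C) and Tpm1 to Tpm4 (tropomyosin). They were taken by gene symbol from a table of 54752 gene rows, of which 15283 had enough counts to be tested, and all 9 were among those tested. The series holds 2 RNA-seq libraries of Carm1 mutant heart and 2 of wild-type heart, prepared from total RNA. Carm1 encodes an arginine methyltransferase that modifies histones and other nuclear proteins. The labels give no allele, no deleting transgene, no strain and no sex for either genotype, and they call the tissue heart without naming a chamber. The series text calls the hearts neonatal, whereas the age label is day 14 for every library. No label says that the libraries of a genotype are from separate animals. The p-values therefore reflect only how far these libraries differ, which may be technical.

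Tropomyosin is a coiled-coil rod that lies along the actin filament and covers the sites to which myosin binds. Troponin holds it there: troponin T ties the complex to tropomyosin, troponin I inhibits contraction, and troponin C binds calcium and lifts the inhibition. The heart uses a cardiac set of these proteins. The embryonic and newborn rodent heart also makes slow skeletal troponin I from Tnni1, which later gives way to cardiac troponin I from Tnni3. Tpm1 gives the main tropomyosin of rodent heart muscle, Tpm2 is strong in slow skeletal and smooth muscle, and Tpm3 and Tpm4 also supply the cytoskeleton of cells that are not muscle.

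Several facts of the libraries touch all values below. Totals were 22217442 and 11677604 counts in the mutant libraries and 21719161 and 20778420 counts in the wild-type libraries, so mutant library 2 was the shallowest. Carm1 itself had 35.7 and 31.8 CPM (counts relative to the TMM-scaled library total) in the mutant libraries, against 45.9 and 52.3 CPM in the wild-type libraries. Its log2 fold change of −0.54 (SE 0.19) did not pass the edgeR quasi-likelihood test (FDR 0.114). A gene count of this kind cannot tell a partial deletion from an intact transcript. Uty, Eif2s3y, Kdm5d and Ddx3y, which lie on the Y chromosome, had 7 and 0 counts in all in the mutant libraries and 1769 and 2236 in the wild-type libraries, while Xist had 8116 and 3921 counts in the mutant libraries and 12 and 15 in the wild-type libraries. The mutant-labelled hearts thus carried the transcripts of females and the wild-type hearts those of males, and genotype and sex cannot be told apart in any value here. Spearman's rho between the deviation of a gene in a library and its exon length was 0.20 and −0.01 in the mutant libraries, −0.31 in wild type library 1 and 0.26 in wild type library 2. The wild-type libraries thus lay at opposite ends of this range. These are correlations across genes, which are not independent replicates. The atrial gene Bmp10 had 2 and 2 counts in the mutant libraries, 0 in wild type library 1 and 690 in wild type library 2. The other atrial genes examined went the other way between wild type libraries 1 and 2. Myl7 had 213 and 151 CPM, Myl4 181 and 147, Sln 31.4 and 24.2, Stard10 35.6 and 27.3 and Nppa 116 and 107. With Bmp10 included, the atrial genes summed to 576 and 491 CPM in these libraries. The part of atrial tissue in the members' values was not tested. Each member is therefore also given without wild type library 1 and without wild type library 2.

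Of the 9 genes, 1 was called at an FDR of 0.05 by the edgeR quasi-likelihood test with Benjamini-Hochberg adjustment over all genes tested. Over all genes, 7.37% were called, with 2.79% higher and 4.58% lower in the mutant hearts. The called gene was Tpm3, which rose in the mutant hearts, and the other 8 did not pass. Of the 9, 8 had an unadjusted p under 0.05, against 27.8% of all genes. Over all genes, the libraries of the genotypes did not overlap in 59.0%. Among the members they did not overlap in 4 genes that were higher in the mutant hearts (Tnni1, Tpm2, Tpm3 and Tpm4, against 30.3% of all genes) and in 4 that were lower (Tnnt2, Tnnt1, Tnni3 and Tpm1, against 28.7%). In Tnnc1 they overlapped. With library totals alone in place of TMM, all genes split into 1188 calls higher and 207 lower, against 426 and 700 under TMM. Tnni1, Tpm2, Tpm3 and Tpm4 were then all called higher, as were 7.77% of all genes. How many genes were called over the whole table also changed with the library left out: 2.67% without mutant library 1, 2.39% without mutant library 2, 14.3% without wild type library 1 and 35.5% without wild type library 2. The calls given below for those fits stand against these shares. In RNA of bulk heart tissue, fewer cells of a type and less RNA per cell cannot be told apart.

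**Figure D1:**
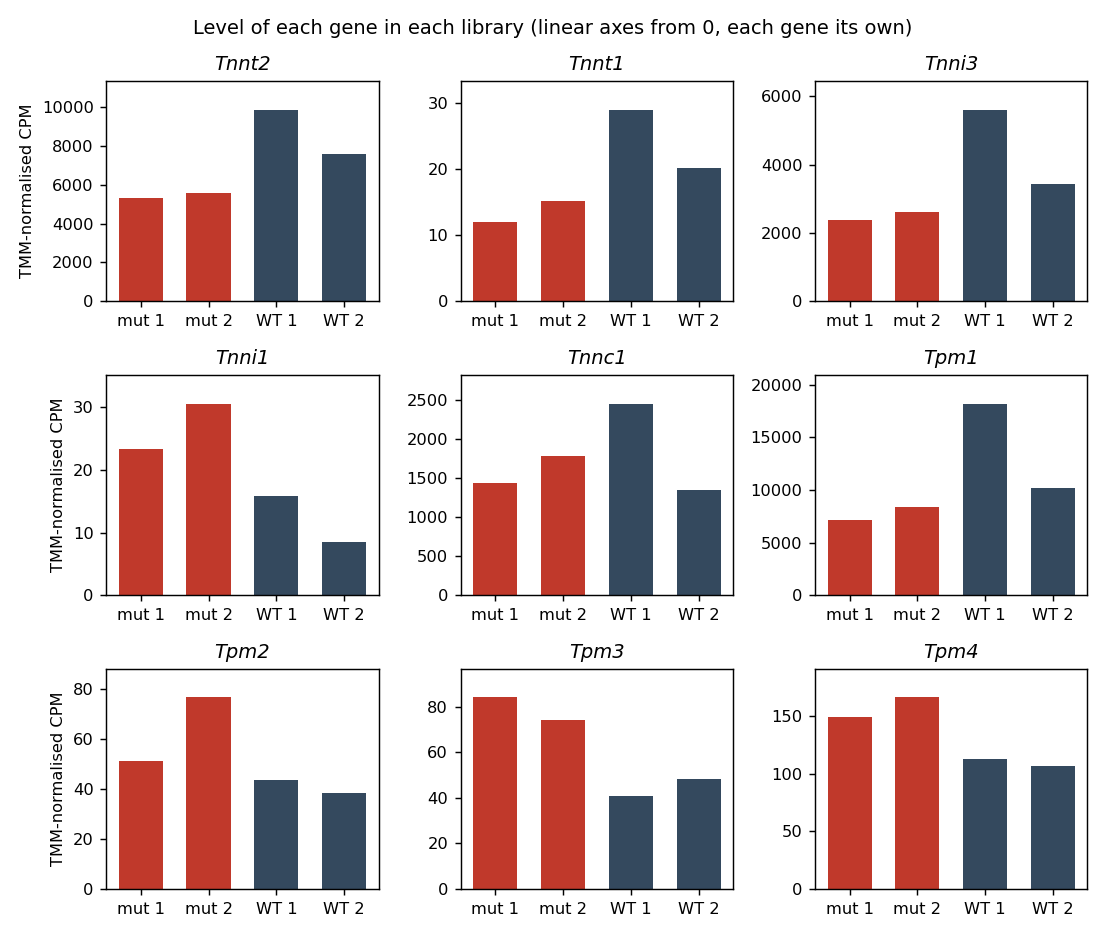
Level of each of the 9 genes in each library, in TMM-normalised CPM on linear axes that start at 0 and differ between genes. Mutant libraries (mut, red) stand left of wild-type libraries (WT, blue); Tnni1, Tpm2, Tpm3 and Tpm4 are higher in both mutant libraries, Tnnt2, Tnnt1, Tnni3 and Tpm1 are lower in both, and Tnnc1 overlaps.

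The promoter windows of Tnnt2, Tnnc1 and Tpm3 are shown because they hold M-CAT or GATA matches, because Tpm3 was the called gene, and because at most 2 of their bases fall in an annotated exon. Each is the 250 bases before a RefSeq start (GRCm38.p6), 5′ to 3′ on the strand of the gene, with matches to the M-CAT element or the GATA site in capitals. The windows are chr1:135836084-135836333 (plus strand) for Tnnt2, chr14:31208062-31208311 (plus strand) for Tnnc1, and chr3:90072401-90072650 and chr3:90079271-90079520 (plus strand) for starts 1 and 2 of Tpm3.
Tnnt2: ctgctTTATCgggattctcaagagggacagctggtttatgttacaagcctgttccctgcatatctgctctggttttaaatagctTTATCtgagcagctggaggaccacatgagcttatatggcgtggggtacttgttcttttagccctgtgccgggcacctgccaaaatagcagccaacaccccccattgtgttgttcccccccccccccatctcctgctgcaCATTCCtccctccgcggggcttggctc
Tnnc1: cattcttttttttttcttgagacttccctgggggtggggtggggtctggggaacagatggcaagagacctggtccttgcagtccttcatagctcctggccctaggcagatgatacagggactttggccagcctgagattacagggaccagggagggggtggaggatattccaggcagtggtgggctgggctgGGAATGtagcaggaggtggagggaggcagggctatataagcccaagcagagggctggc
Tpm3 start 1: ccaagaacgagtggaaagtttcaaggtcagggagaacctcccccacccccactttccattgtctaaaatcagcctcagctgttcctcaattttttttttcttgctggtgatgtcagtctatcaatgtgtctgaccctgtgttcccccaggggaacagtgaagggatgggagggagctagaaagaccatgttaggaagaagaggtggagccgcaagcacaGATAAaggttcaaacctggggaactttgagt
Tpm3 start 2: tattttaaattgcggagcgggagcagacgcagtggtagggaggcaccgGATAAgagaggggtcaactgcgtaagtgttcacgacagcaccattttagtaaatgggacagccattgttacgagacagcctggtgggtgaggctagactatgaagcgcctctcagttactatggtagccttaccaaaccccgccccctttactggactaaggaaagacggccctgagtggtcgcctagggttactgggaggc

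All 9 members had a window, 12 in all. The M-CAT element (CATTCC, bound by TEAD factors) was in 3 of the 12 windows, those of Tnnt2 at 27 bases before the start and, on the other strand, of Tpm1 at 56 and Tnnc1 at 58; it was in 12.6% of all 32851 windows of this length. The GATA site (GATAA) was in 3 windows, that of Tnnt2 at 245 and 166 bases on the other strand and those of both Tpm3 starts at 31 and 202, against 22.6% of all windows. The TATA box (TATAAA) was in that of Tnnt1 alone, at 30 bases, against 12.4%. The E-box (CANNTG), whose matches here overlap none of the others, was in 11 of 12, against 66.2%. The MEF2 site was in none of the 12 (0.508% of all windows) and the CArG box in none (1.47%), and no match says only that these letters are not in these windows. The windows of Tnni1 overlap each other, and every E-box of its second window is also in its first. Annotated exons cover 250 bases of the second Tnnt2 window. They cover 193 bases of the Tpm1 window, which include its M-CAT match. Both strands were searched, and a match is a description of sequence, not of binding.

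Tnnt2 (ENSMUSG00000026414; GRCm38 chromosome 1, 135836354 to 135852260, plus strand) encodes cardiac troponin T. It had 5306 and 5587 CPM in the mutant libraries, against 9854 and 7593 CPM in the wild-type libraries. Both mutant libraries lay below both wild-type libraries, with means of 5446 ± 199 CPM in mutant and 8723 ± 1599 CPM in wild type (SD, n = 2 each). The log2 fold change was −0.68 (SE 0.27, 95% interval −1.31 to −0.05) and missed the threshold by edgeR's quasi-likelihood test (FDR 0.155). It was −0.49 without wild type library 1 and −0.89 without wild type library 2, and in both of those fits the gene was called (FDR 0.0410 and 7.8e-04). The annotation lists 15 transcripts of this gene, and a count per gene does not separate the fetal from the adult splice forms.

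Tnnt1 (ENSMUSG00000064179; chromosome 7, 4504570 to 4516382, minus strand), the slow skeletal troponin T, was scarce, with 12.0 and 15.2 CPM in the mutant libraries and 28.9 and 20.1 CPM in the wild-type libraries. The genotypes did not overlap, and mutant was the lower. The threshold was missed (log2 fold change −0.85, SE 0.24, FDR 0.0713 by edgeR's quasi-likelihood test). Without wild type library 2 it was −1.14 and was called (FDR 8.6e-04), and without wild type library 1 it was −0.59 and was not (FDR 0.0679). Its value had the sign of that of the cardiac gene Tnnt2. Tnnt1 made up 0.790% and 0.944% of troponin T transcripts in the mutant libraries and 1.02% and 0.919% in the wild-type libraries, when counts are set per kb of merged exons. These shares overlapped (exact permutation test, two-sided p = 0.667). Their size depends on the length used. Per kb of coding sequence they were 0.261% and 0.312% in the mutant libraries and 0.337% and 0.303% in the wild-type libraries, again with overlap.

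Tnni3 (ENSMUSG00000035458; chromosome 7, 4518305 to 4524229, minus strand) encodes cardiac troponin I. It had 2382 and 2607 CPM in the mutant libraries, against 5605 and 3442 CPM in the wild-type libraries. The mutant libraries were the lower and lay close together, while the wild-type libraries were far apart. The log2 fold change was −0.86 (SE 0.30), with an edgeR FDR of 0.116. It moved with the library left out, to −0.48 (FDR 0.0499) without wild type library 1 and −1.21 (FDR 1.5e-04) without wild type library 2. Tnni3 lies 1.92 kb upstream of Tnnt1 on the same strand, and the ratio of Tnnt1 to Tnni3 per kb was 0.00473 and 0.00544 in the mutant libraries and 0.00483 and 0.00545 in the wild-type libraries. The pair therefore kept almost the same proportion in all 4 libraries. The gene model of Dnaaf3, which encodes a factor that assembles motile cilia, overlaps Tnni3 on the same strand. Dnaaf3 had 78 and 31 counts in the mutant libraries and 124 and 159 in the wild-type libraries. It was called lower in the mutant hearts (log2 fold change −1.47, edgeR FDR 0.0248). Tnni3 had 35442 counts or more in every library. Where the genes share sequence, their counts cannot be told apart even by strand.

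Tnni1 (ENSMUSG00000026418; chromosome 1, 135779434 to 135810989, plus strand), the slow skeletal and fetal troponin I, ran the other way. It had 584 and 416 counts in the mutant libraries and 277 and 167 in the wild-type libraries, which is 23.3 and 30.6 CPM in mutant against 15.8 and 8.52 CPM in wild type. Both mutant libraries were above both wild-type libraries. The log2 fold change of 1.14 (SE 0.30, 95% interval 0.44 to 1.85), a 2.21-fold higher level, was the largest of the 9 in size and narrowly missed the threshold by edgeR's quasi-likelihood test (FDR 0.0609). It was called without mutant library 1 (1.33, FDR 0.0214), without wild type library 1 (1.64, FDR 9.4e-04) and without wild type library 2 (0.72, FDR 0.0168), but not without mutant library 2 (0.93, FDR 0.211).

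Set within its family, the difference in Tnni1 was larger. Tnni1 made up 0.555% and 0.667% of troponin I transcripts per kb of merged exons in the mutant libraries, against 0.161% and 0.141% in the wild-type libraries. The means were 0.611 ± 0.079% in mutant and 0.151 ± 0.014% in wild type (SD, n = 2 each), and the odds of a troponin I transcript being Tnni1 were 4.05-fold higher in the mutant hearts. A share within a family does not depend on how libraries are scaled, and its log2 odds ratio of 2.02 stayed between 1.88 and 2.15 when any library was left out. The exact two-sided permutation test gave p = 0.333, the smallest that 2 libraries against 2 allow. Tnni3 supplied 99.2% and 99.1% of troponin I transcripts in the mutant libraries, against 99.6% and 99.7% in the wild-type libraries. Fast skeletal troponin I (Tnni2) had 4.30 and 3.68 CPM in the mutant libraries and 8.0 and 4.29 CPM in the wild-type libraries, with no call (log2 fold change −0.61, edgeR FDR 0.283).

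Tnnc1 (ENSMUSG00000091898; chromosome 14, 31208312 to 31211729, plus strand) encodes the troponin C of heart and slow skeletal muscle, the calcium sensor of the complex. It had 1429 and 1775 CPM in the mutant libraries and 2452 and 1349 CPM in the wild-type libraries. The mutant values lay between the wild-type values. Its log2 fold change of −0.25 (SE 0.32, 95% interval −0.99 to 0.50) was not called (edgeR FDR 0.662), and an interval of this width leaves room for a change in either direction. The sign turned without wild type library 1 (0.23, FDR 0.397), while without wild type library 2 the gene was called (−0.65, FDR 0.00924). Tnnc1 lies inside Nisch, a gene of the opposite strand, whose 8468 and 4151 counts in the mutant libraries and 3926 and 6565 in the wild-type libraries cannot be told apart from those of Tnnc1 where the genes share sequence, unless the counting used strand.

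Relative to its partners, Tnnc1 was higher in the mutant hearts. Its ratio to Tnni3 per kb was 1.19 and 1.35 in the mutant libraries, against 0.867 and 0.776 in the wild-type libraries, a 1.54-fold difference without overlap. Its ratio to Tnnt2 was 2.01 and 2.37 in mutant and 1.85 and 1.32 in wild type, a 1.39-fold difference, also without overlap. For both, the exact permutation p was again the smallest possible, 0.333. The ratio of Tnnt2 to Tnni3, in contrast, overlapped (0.593 and 0.570 in mutant, 0.468 and 0.587 in wild type). The fast skeletal troponin C gene Tnnc2 had 0 counts in every library, which allows up to 0.135 to 0.257 CPM of the library total.

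Tpm1 (ENSMUSG00000032366; chromosome 9, 67022590 to 67049406, minus strand) was the most abundant of the 9 genes in CPM, with 7156 and 8406 CPM in the mutant libraries and 18225 and 10160 CPM in the wild-type libraries. The genotypes did not overlap, but wild type library 1 stood far above wild type library 2. By edgeR's quasi-likelihood test the gene was not called (log2 fold change −0.87, SE 0.35, 95% interval −1.67 to −0.07, FDR 0.151). Wild type library 1 decided its size: the log2 fold change was −0.40 without that library (FDR 0.109) and −1.27 without wild type library 2 (FDR 1.5e-04). Tpm1 and Tnni3 held close to the same proportion to each other, with ratios per kb of 0.956 and 1.03 in mutant and 1.03 and 0.939 in wild type. The gene has 21 annotated transcripts, which include cytoskeletal as well as striated forms, and the counts do not tell them apart.

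Tpm3 (ENSMUSG00000027940; chromosome 3, 90072649 to 90100902, plus strand) gives a slow skeletal tropomyosin and several cytoskeletal forms. It had 2110 and 1010 counts in the mutant libraries and 713 and 947 in the wild-type libraries, or 84.1 and 74.3 CPM in mutant against 40.7 and 48.3 CPM in wild type. Both mutant libraries stood well above both wild-type libraries, with means of 79.2 ± 6.9 CPM in mutant and 44.5 ± 5.4 CPM in wild type (SD, n = 2 each). The gene rose by a log2 fold change of 0.83 (SE 0.20, 95% interval 0.38 to 1.28), which is 1.78-fold, with an edgeR quasi-likelihood FDR of 0.0446. The call was lost without mutant library 1 (0.74, FDR 0.443) and without mutant library 2 (0.91, FDR 0.267). It was made without wild type library 1 (0.70, FDR 0.0166) and without wild type library 2 (0.92, FDR 0.00141).

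A near-identical copy makes this call less certain. Tpm3-rs7 on chromosome 14 shares 2108 bases with Tpm3 transcripts at 99.1% identity, so reads could be divided between them. It had 490 and 270 counts in the mutant libraries and 309 and 309 in the wild-type libraries. With its counts added, Tpm3 had 104 and 94.2 CPM in the mutant libraries and 58.4 and 64.1 CPM in the wild-type libraries, still without overlap, and a log2 fold change of 0.69 (SE 0.19) that no longer passed (edgeR FDR 0.0646). In that edgeR fit 1124 genes (7.36%) were called in all and 0 of the 9, although 8 of the 9 had an unadjusted p under 0.05. With the copies kept apart, the Wald test of DESeq2 called 6 of the 9 and 1705 genes (11.8%) in all.

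Tpm2 (ENSMUSG00000028464; chromosome 4, 43514711 to 43523765, minus strand), the tropomyosin of slow skeletal and smooth muscle, had 51.3 and 76.6 CPM in the mutant libraries and 43.5 and 38.5 CPM in the wild-type libraries. The mutant libraries were the higher, and mutant library 2 stood above mutant library 1. The log2 fold change was 0.64 (SE 0.24, edgeR FDR 0.128), and it dropped to 0.32 without mutant library 2 (FDR 0.790). It was 0.71 without wild type library 1 (FDR 0.0536) and 0.51 without wild type library 2 (FDR 0.0840), with no call in either. Tpm4 (ENSMUSG00000031799; chromosome 8, 72134975 to 72153142, plus strand), a tropomyosin of the cytoskeleton, had 149 and 167 CPM in the mutant libraries and 113 and 106 CPM in the wild-type libraries. Here the libraries of each genotype lay close together and apart from the other genotype. The log2 fold change was 0.52 (SE 0.19, edgeR FDR 0.128), and it was called without wild type library 1 (0.55, FDR 0.0387) and without wild type library 2 (0.44, FDR 0.0459). A processed pseudogene, Gm7809, matches Tpm4 at 96.8% identity over 743 bases, and adding its counts left the log2 fold change at 0.52 (FDR 0.137).

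**Figure D2:**
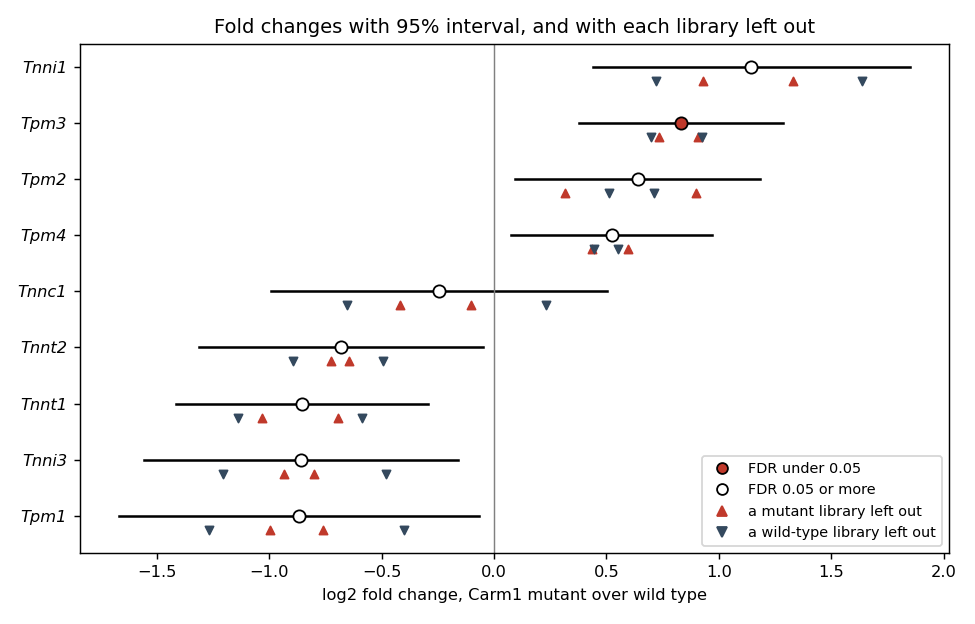
Log2 fold change of each gene, Carm1 mutant over wild type, with its 95% interval (circles and bars), and the value when a mutant library (upward triangles) or a wild-type library (downward triangles) is left out. Only Tpm3 is filled, at an FDR of 0.0446; of the 9 genes, Tnnc1 alone changes sign when a library is left out.

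Within the tropomyosin family the 3 minor genes all took a larger share in the mutant hearts. Per kb of merged exons, Tpm1 supplied 91.7% and 91.9% of tropomyosin transcripts in the mutant libraries and 97.5% and 95.8% in the wild-type libraries. Tpm4 supplied 5.64% and 5.36% in mutant and 1.78% and 2.95% in wild type. The odds of a tropomyosin transcript being Tpm4 were thus 2.48-fold higher in the mutant hearts. Tpm2 supplied 1.47% and 1.87% in mutant and 0.518% and 0.809% in wild type, a 2.58-fold difference in odds, and Tpm3 supplied 1.149% and 0.866% in mutant and 0.232% and 0.485% in wild type, a 2.99-fold difference. None of these shares overlapped between genotypes, and each had an exact two-sided permutation p of 0.333, the smallest possible. The size of the differences moved with the wild-type library left out. The log2 odds ratio of Tpm3 was 1.05 without wild type library 1 and 2.11 without wild type library 2. In the same order it was 1.04 and 1.69 for Tpm2, and 0.93 and 1.68 for Tpm4. Counts of the copies Tpm3-rs7 and Gm7809 were not added to these shares. Shares within a family sum to a whole, so the 4 tropomyosin shares are not separate results.

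**Figure D3:**
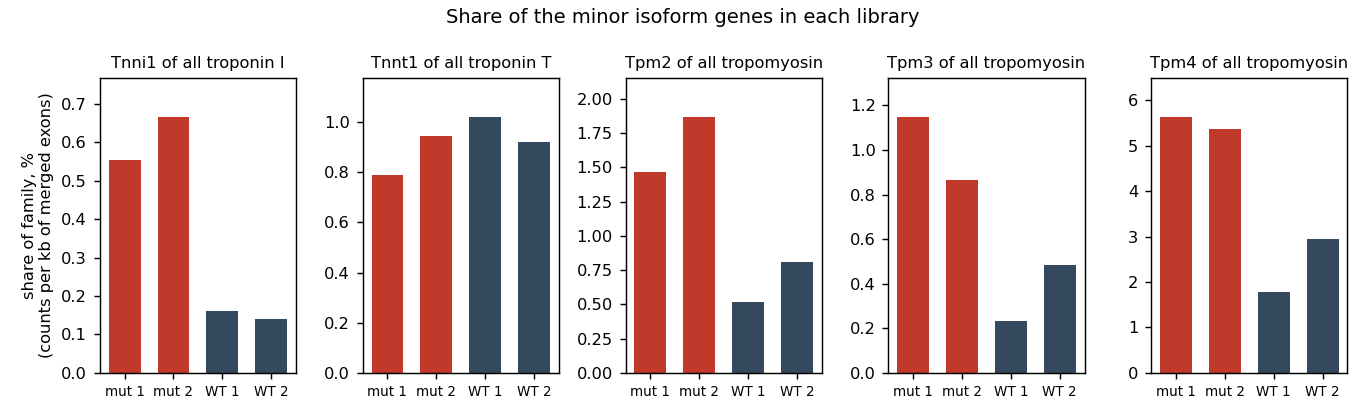
Share of each minor gene in its family in each library, in percent of counts per kb of merged exons, on linear axes that start at 0. Tnni1, Tpm2, Tpm3 and Tpm4 hold larger shares in both mutant libraries (mut, red) than in both wild-type libraries (WT, blue), while the shares of Tnnt1 overlap.

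Per kb of merged exons the 4 main cardiac genes stood far above the rest, but the order among them depends on the length used. In the mutant hearts the order of mean CPM per kb was Tnnc1 (1539), Tnni3 (1209), Tpm1 (1200), Tnnt2 (703), Tpm4 (71.7), Tpm2 (22.0), Tpm3 (13.0), Tnni1 (7.48) and Tnnt1 (6.17). In the wild-type hearts it was Tnni3 (2193), Tpm1 (2189), Tnnc1 (1825), Tnnt2 (1125), Tpm4 (49.9), Tpm2 (14.1), Tnnt1 (11.1), Tpm3 (7.32) and Tnni1 (3.38). The ranges of Tnni3 and Tpm1 overlapped in both genotypes, and which of them was higher changed between libraries of the same genotype. The ranges of Tnnt1 and Tnni1 in mutant, and of Tnnc1 with Tnni3 and Tpm1 in wild type, overlapped too, but within each library the order was the same: Tnnt1 was below Tnni1 in both mutant libraries, and Tnnc1 was below Tnni3 and Tpm1 in both wild-type libraries. The other neighbours in the order did not overlap. Merged exons join all annotated transcripts and include long untranslated ends that differ between genes. They span 7752 bases in Tnnt2 and 1041 in Tnnc1, whose longest coding sequences have 906 and 483 bases. Per kb of coding sequence the order changed. The summed tropomyosins (8336 in mutant, 14760 in wild type) and troponin T (6031 and 9661) then came before troponin I (3995 and 7178) and troponin C (3317 and 3934). Per kb of merged exons troponin T came last of these families in both genotypes. By mean CPM, Tpm1 ranked 10, Tnnt2 12, Tnni3 20 and Tnnc1 37 among all genes tested, and the 5 others between 860 and 6023.

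**Figure D4:**
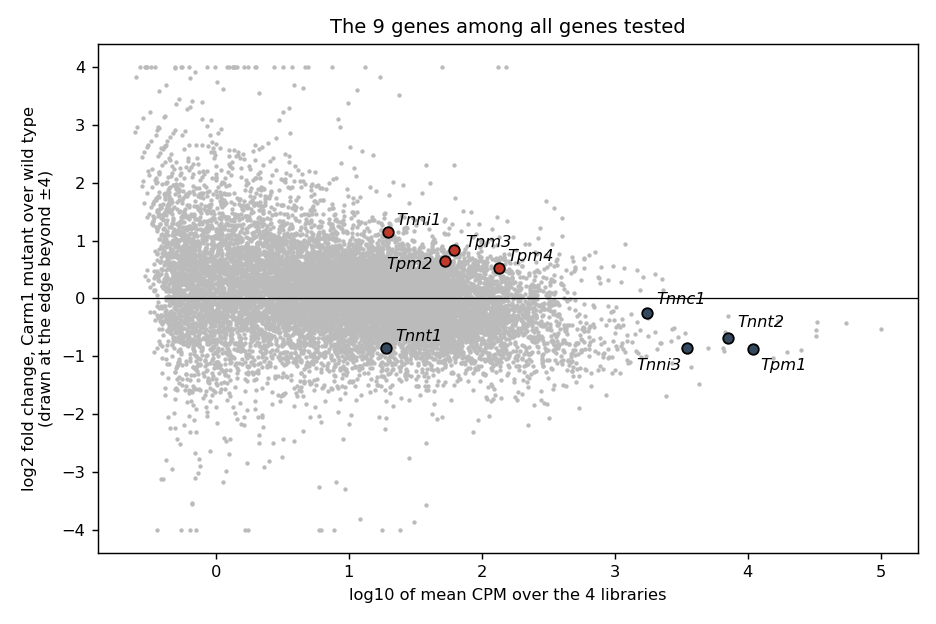
Log2 fold change, Carm1 mutant over wild type, of each gene tested (grey) against the log10 of its mean CPM over the 4 libraries, with values beyond 4 drawn at the edge. The 9 genes are outlined, red where the value is above 0 and blue where it is below 0; Tnnt2, Tnni3, Tnnc1 and Tpm1 lie at the abundant end.

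Summed markers of some cell types of the heart lay apart between the genotypes, although few single markers were called. Over all genes tested, the libraries of the genotypes did not overlap in 59.0%. The summed CPM of 10 cardiomyocyte markers was 41113 and 44074 in the mutant libraries and 82822 and 73685 in the wild-type libraries, with 2 of the 10 called lower (Atp2a2, which pumps calcium back into the sarcoplasmic reticulum, and its inhibitor Pln) and none higher. The sum of 7 fibroblast markers was 5236 and 5450 CPM in mutant and 3155 and 3669 CPM in wild type, and that of 6 endothelial markers 1569 and 1363 in mutant and 920 and 1216 in wild type, with no gene of either list called. The 8 smooth muscle markers summed to 1988 and 2089 CPM in mutant and 1842 and 2055 in wild type, which overlap, with Synpo2 and Lmod1 called lower. Of 10 skeletal muscle markers 4 had enough counts to be tested and none was called; Myh1 and Myh4, myosins of fast skeletal fibres, had 0 counts in every library. The sum of 5 macrophage markers was 133 and 147 CPM in mutant and 131 and 118 CPM in wild type, and that of 5 erythroid markers 538 and 862 in mutant and 710 and 505 in wild type, with no gene of either list called. Of 6 atrial genes 5 were tested, of which Myl7 and Myl4 fell and Nppa rose, while Bmp10, with the counts given above, was not tested. The part of these markers in the members' values was not tested, and ratios to their sums, computed after the values were seen, are given as a description.

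Per 1000 CPM of cardiomyocyte markers, Tnni3 had 57.9 and 59.1 CPM in the mutant libraries and 67.7 and 46.7 CPM in the wild-type libraries. Tpm1 had 174 and 191 in mutant and 220 and 138 in wild type, and Tnnt1 had 0.293 and 0.344 in mutant and 0.349 and 0.272 in wild type. On this scale these 3 genes overlapped, with geometric means 1.03 to 1.05 times those of wild type, and Tnnt2 was 1.16-fold higher without overlap. The remaining 5 genes were higher in both mutant libraries: Tnni1 4.22-fold, Tpm3 3.27-fold, Tpm2 2.81-fold, Tpm4 2.64-fold and Tnnc1 1.61-fold. The cardiomyocyte sum was itself lower in both mutant libraries, so a gene of equal CPM in both genotypes stands higher in mutant on this scale. Tnnt2 and Tnnc1, higher here, had log2 fold changes below 0 in CPM (−0.68 and −0.25). What share of all genes does so was not computed. The fibroblast sum was higher in both mutant libraries, and the reverse holds there. Set against fibroblast markers instead, Tpm2 (0.976-fold), Tpm4 (0.915-fold) and Tnni1 (1.46-fold) overlapped between genotypes, while Tpm3 (1.13-fold) was just without overlap. Set against smooth muscle markers, Tpm2, Tpm3 and Tpm4 were 1.46-, 1.70- and 1.37-fold higher without overlap.

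**Figure D5:**
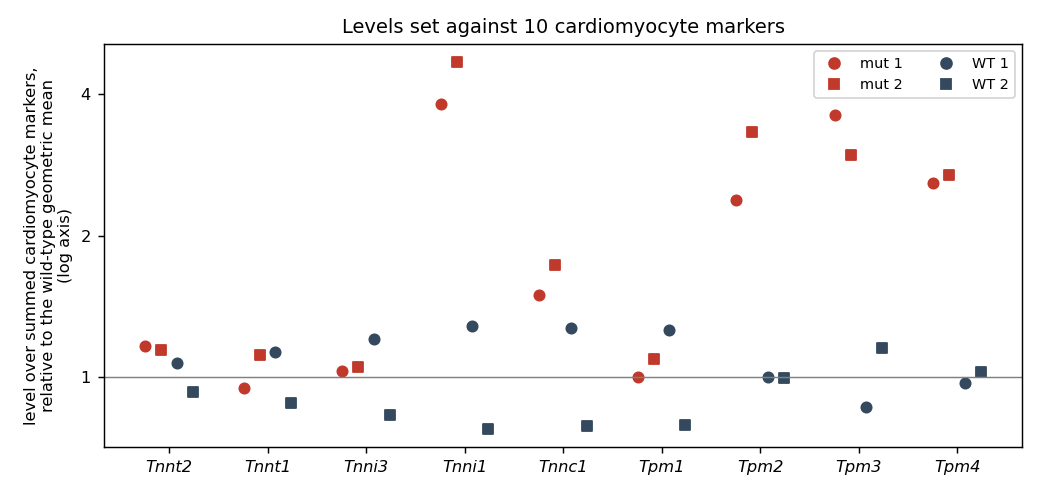
Level of each gene divided by the summed CPM of 10 cardiomyocyte markers, relative to the geometric mean of the wild-type libraries, on a log axis (red, mutant libraries; blue, wild-type libraries). Tnnt1, Tnni3 and Tpm1 mix around 1, Tnnt2 is slightly above, and Tnni1, Tnnc1, Tpm2, Tpm3 and Tpm4 are higher in both mutant libraries. The marker sum was lower in both mutant libraries, which raises every mutant value on this scale.

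Over all genes tested, 4.58% were called lower and 2.79% higher, and 4 lists of genes tied to troponin or tropomyosin are set beside those shares. Of 14 thin filament partners 5 were called lower and none higher, with a median log2 fold change of −0.84 against 0.02 over all genes tested. The cardiomyocyte markers, which share Actc1, Ttn and Mybpc3 with this list, had a median of −0.88, so the fall was not particular to these partners. Acta1 (0.94, edgeR FDR 0.112), Neb (0.57) and Tmod4 (0.50) had values above 0 without a call. Tmod1, which caps the pointed end of the thin filament, had 98.0 and 95.03 CPM in the mutant libraries and 334 and 271 CPM in the wild-type libraries (log2 fold change −1.65, SE 0.21, edgeR FDR 0.00995). Fhod3, a formin of heart sarcomeres, fell by 1.54 on the log2 scale (FDR 0.0103) and Cap2, an actin-binding protein, by 1.17 (FDR 0.0220). Of 10 kinases that phosphorylate or bind troponin I, 1 fell and none rose: Tnni3k, a heart kinase that binds troponin I, had 58.2 and 57.4 CPM in mutant and 149 and 110 CPM in wild type (log2 fold change −1.16, SE 0.22, edgeR FDR 0.0245). The median of that list was −0.20. A single call in a list of 9 or 10 genes, here and in the lists of splicing and transcription factors, is a description of that gene alone.

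Of 10 splicing regulators of Tnnt2 or Tpm1 transcripts, Rbfox1, itself a splicing factor of heart and brain, fell (log2 fold change −1.11, edgeR FDR 0.0422). The other 9 did not pass, and the list median was −0.07. Of 9 transcription factors that bind troponin or other heart muscle promoters, Srf, the factor that binds the CArG box, fell, to 75.8 and 78.4 CPM in the mutant libraries, against 161 and 135 CPM in the wild-type libraries (log2 fold change −0.94, edgeR FDR 0.0324). The other 8 did not pass, and the list median was −0.23. Of the 3 fast skeletal genes, Tnnt3 had 62 and 22 counts in mutant and 13 and 29 in wild type and did not pass (edgeR FDR 0.256), nor did Tnni2.

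Genomic neighbours of the members gave the following values. On chromosome 1 Tnni1 and Tnnt2 lie on the same strand with only Lad1, an anchoring-filament gene, between them, and Lad1 had a log2 fold change of −0.28 (edgeR FDR 0.495), while Tnni1 stood at 1.14 and Tnnt2 at −0.68. Phlda3, on the other side of Tnni1, stood at −0.10. On chromosome 4 Tln1, the talin gene 7.75 kb from Tpm2, stood at 0.38 (FDR 0.287). On chromosome 9 the nearest coding genes of Tpm1 lie far off, Lactb at 47.1 kb (−0.92, FDR 0.0543) and Tln2 at 168 kb (−0.63, FDR 0.0827). Neither passed the test.

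Over the 4 libraries, the genes closest in profile were found by the root mean square distance between centred log2 CPM values, among 8271 genes of at least 10 CPM. For Tnnt2 they were Wsb2 (0.00728) and Cse1l (0.0158), and for Tnnc1 Hint1 (0.0135) and the ribosomal protein gene Rpl9 (0.0298). For Tnni3 they were Cisd1, of the outer mitochondrial membrane, at 0.00752 and the ventricular myosin light chain Myl3 at 0.0138. For Tpm1 they were Ndufab1 (0.0308) and Cox5a (0.0314), subunits of the respiratory chain. For Tnnt1 they were Them6 (0.0233) and Lmod3 (0.0273), which nucleates actin in muscle. For Tpm3 they were Dpysl2 (0.0255) and Nos2 (0.0277), for Tpm4 Map6 (0.0180) and Sdc2 (0.0192), for Tpm2 Ndn (0.0331) and Bax (0.0596), and for Tnni1 Glipr2 (0.050) and Gm15920 (0.0917). Among the members themselves Tnni3 and Tpm1 were closest (0.061), followed by Tnnt1 and Tnni3 (0.094), whereas Tnni1 was 0.996 from Tnni3. With 4 libraries and so many genes, close profiles are a description only.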

How the data were processed

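RNA of Carm1 mutant and wild-type mouse heart was sequenced, in 2 libraries per genotype. The authors deposited raw counts per gene, whole numbers with different totals per library, and these were used unchanged. Per the submitters' processing notes, FastQC, HISAT2 and the mm10 build were used; versions, the counting program and its strand setting were not given in the sources used here. Columns were matched to samples by title and grouped by genotype label.

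Of 54752 rows 54723 had a symbol in GENCODE M21 (GRCm38, the assembly of mm10). Genes passing filterByExpr (15283) received TMM factors. The test was the quasi-likelihood test of edgeR 4.0.16 under R 4.3.3 (glmQLFit, glmQLFTest) on genotype alone, with 2 residual degrees of freedom and Benjamini-Hochberg adjustment (FDR) at 0.05. The SE is the log2 fold change divided by the square root of F. The common biological coefficient of variation was 0.186. Chi-square per degree of freedom between replicates was 11.5 in mutant and 51.1 in wild type, so no library repeated another. Depth was 11677604 to 22217442 counts, and floors for a count of 0 use 3 counts and cover counting error only. Shares and ratios used counts per kb of merged exons, with exact two-sided permutation tests. Copies were sought with BLAST+ 2.17.0 at 95% identity over at least 100 bases; motifs were exact matches in RefSeq windows.

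Alternatives were DESeq2 size factors and Wald test (1.42.0), library totals, upper-quartile factors, mitochondrial genes left out, other filters, limma-voom (3.58.1), removal of a length trend, an FDR of 0.10, a block for the replicate number and each library left out. A crossed block, added copies, marker ratios and pair ratios were chosen after seeing the data. Members and lists were chosen with earlier results of these data known. Named genes were all members and fast skeletal paralogs, Carm1 and sex-linked genes, of each list the called genes up to 3 or, with none called, its 2 most abundant, nearest coding neighbours, and the 2 closest profiles per member; the text gives part of them.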

Additional observations from a re-analysis of the deposited data

How the results depend on the processing

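With no filter, more than 15283 genes were tested. Over all genes, 1126 of 15283 were called under the settings of the report and 1395 of 15283 with library totals alone. The count was 2630 with no filter, 1705 by the DESeq2 Wald test, 2640 with the length trend removed, 2488 at an FDR of 0.10, and 377 to 5679 when a library was left out. Of the 9 genes, 1 was called under the settings of the report. The number called was 4 with library totals alone, 5 with no filter, 6 by DESeq2, 5 with the length trend removed, 3 at an FDR of 0.10, 0 with near-identical copies added, and 0 to 8 when a library was left out, from mutant library 2 (0) to wild type library 2 (8). A fit without a library assumes that the lone sample varies like the other pair. With library totals the median over all genes was 0.41 on the log2 scale, against 0.02 under TMM. Tnnc1 then changed sign (0.18), while the other 8 genes kept theirs, at −0.27 to −0.44 and 0.92 to 1.57. Leaving out a library moved Tnnc1 from −0.65 to 0.23, with the changed sign without wild type library 1. Over 17 alternatives Tpm3 ranged over log2 fold changes of 0.69 to 1.21 with an FDR of 3.0e-04 to 0.443, and Tnni1 over 0.72 to 1.64 with 1.1e-07 to 0.211. The FDR ranges of the others were 7.8e-04 to 0.740 for Tnnt2, 3.3e-04 to 0.492 for Tnnt1, 1.5e-04 to 0.646 for Tnni3, 0.00924 to 0.975 for Tnnc1, 1.5e-04 to 0.690 for Tpm1, 0.00931 to 0.790 for Tpm2 and 0.0369 to 0.724 for Tpm4. The shares of Tnni1, Tnnt1, Tpm1, Tpm2, Tpm3 and Tpm4 kept their direction with raw counts, coding length and each library left out. That of Tnnt2, at a log2 odds ratio of −0.019, was 0.028 with raw counts, 0.033 with coding length and −0.067 to 0.029 with a library left out. The size of a share depended on the length used. Per kb of coding sequence Tnni1 made up 1.09% and 1.31% of its family in the mutant libraries, against 0.317% and 0.278% in the wild-type libraries. Tpm4 made up 2.62% and 2.49% in the mutant libraries, against 0.805% and 1.35% in the wild-type libraries.

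The labels do not say that replicate numbers pair libraries, and same-numbered libraries deviated against each other (correlation −0.30). With the replicate block 1222 genes and 1 of the 9 were called, Tnni1 (1.19, FDR 0.00893) and not Tpm3 (0.83, FDR 0.0826). With crossed pairing, added after seeing the data, 4176 genes and 5 of the 9 were called.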
